A study of Mus musculus with 4 samples.

Results

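The genes described here encode the machinery that holds RNA polymerase II (Pol II) shortly after initiation and releases it into productive elongation. They are Cdk9, Ccnt1, Ccnt2 and Hexim1 of the P-TEFb kinase and its inhibitor, Ell, Ell2 and Aff4 of the super elongation complex, and Supt5, Nelfa and Nelfe, which act in pausing. The members were taken by gene symbol alone and are 10 of the 55335 genes in the files and 10 of the 18661 with enough counts to be tested. RNA was sequenced from AB2.2, a mouse embryonic stem cell (ESC) line, in 2 control libraries and 2 libraries of cells given 50 mM lactate for 24 h. Both groups were grown on mouse embryonic fibroblast feeders in medium with serum, leukemia inhibitory factor (LIF), CHIR99021, a GSK3 inhibitor, and PD0325901, a MEK inhibitor. The RNA is therefore that of bulk cultures of 1 line, and fewer cells of a type and less RNA per cell cannot be told apart. Nothing in the labels says that the replicates came from separate cultures, so p-values measure only the spread between these libraries, which may be technical.

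After initiation, Pol II commonly pauses a short distance downstream of the start site, held by negative elongation factor (NELF) and by DSIF, the dimer of Spt5 and Spt4. P-TEFb, made of the kinase Cdk9 and a T-type cyclin, phosphorylates NELF, Spt5 and the C-terminal domain (CTD) of Pol II, after which NELF leaves and Spt5 stays on as a positive elongation factor. Much of the cell's P-TEFb is kept inactive by Hexim proteins on the 7SK RNA, and part of the active kinase is carried by the super elongation complex, which is built on an AFF scaffold and holds an ELL factor. In ESCs this machinery is known for rapid induction of paused developmental and stress genes. The comparison asked whether the RNA of these factors differed upon lactate supplementation, and it measures neither protein nor kinase activity.

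The libraries held 18067600 to 19077900 counts on genes. All 8 ESC markers examined, such as Pou5f1 and Sox2, had counts in every library, and their summed level was 5106 and 5561 CPM (counts relative to library size, after TMM scaling) in the control and 5542 and 6333 CPM in the lactate libraries. All 10 fibroblast markers, such as Col1a1, also had counts in every library, with none at 0, and summed to 652 and 927 CPM in the control and 557 and 661 CPM in the lactate libraries. Single markers went both ways with lactate. Of the fibroblast markers 5 were higher and 5 lower, from Col3a1 at a log2 fold change of -0.90 to Twist2 at 0.63. Of the ESC markers 6 were higher and 2 lower, from Pou5f1 at -0.40 to Sox2 at 0.56. Mitochondrial genes took 5.48% and 5.72% of the counts in replicate 1 of the control and lactate groups, and 2.43% and 2.82% in replicate 2. The part of the feeder cells and of the mitochondrial share in the values below was not tested.

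None of the 10 members passed the threshold upon lactate supplementation (edgeR's quasi-likelihood test, Benjamini-Hochberg adjusted p under 0.05 and over 2-fold), which called 168 genes, or 0.900% of all tested (0.552% higher and 0.348% lower). DESeq2 called none of them either, with 2.01% of all genes called. Limma called no gene at all, so it cannot tell the members from the rest. At an unadjusted p under 0.05 in edgeR, Cdk9 and Nelfe were lower and no member was higher, against 11.4% and 11.7% of all genes. The CPM of the groups did not overlap for Cdk9 and Nelfe, lower in both lactate libraries, as for 25.9% of all genes, nor for Aff4, higher in both, as for 27.0%. The median log2 fold change of the 10 members was -0.04, beside 0.01 over all genes tested. All 10 members had a 95% interval inside a 2-fold change in either direction, as did 63.6% of all genes. These intervals are not adjusted for the number of genes.

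**Figure D1:**
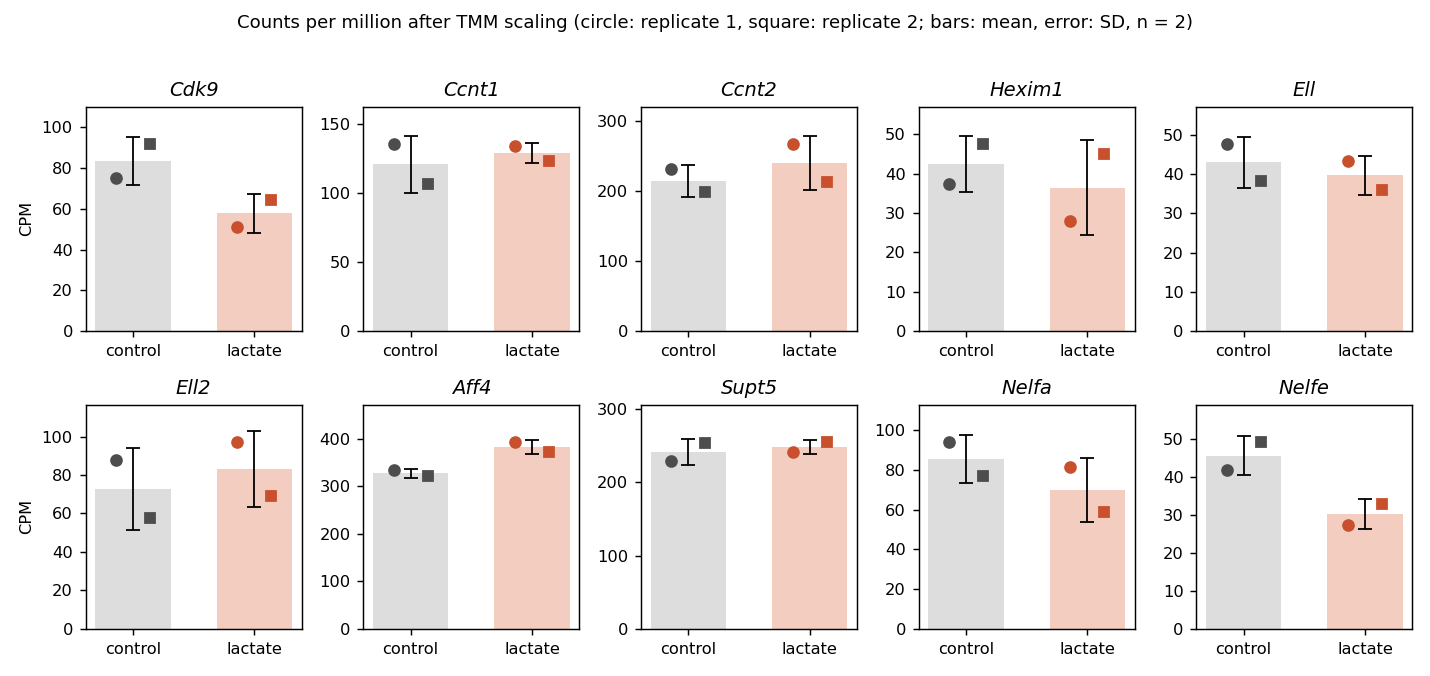
Level of each member in CPM (linear axes from 0, a scale for each gene) in the control and lactate libraries. Points are libraries, bars the mean and error bars the SD (n = 2); the lactate points of Cdk9 and Nelfe lie below their control points, those of Aff4 lie above, and the groups of the other 7 members overlap.

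Cdk9, the catalytic subunit of P-TEFb, lies on the minus strand at chr2:32705784-32713076 (GRCm38). It was at 75.0 and 91.7 CPM in the control libraries and at 50.9 and 64.4 CPM in the lactate libraries, so both lactate values were below both control values. The group means were 83.3 ± 11.8 and 57.7 ± 9.57 CPM (SD, n = 2). The log2 fold change was -0.53 (SE 0.18, 95% interval -0.96 to -0.11), with an adjusted p of 0.150, and no alternative turned its direction. Exons of the microRNA genes Mir2861 and Mir3960 lie within those of Cdk9, with 2 to 7 counts each per library.

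The T-type cyclins activate Cdk9 and help to bind its targets. Ccnt1 (cyclin T1, chr15:98538689-98570923, minus strand) was at 135.5 and 106.3 CPM in the control and 134.1 and 123.7 CPM in the lactate libraries, with a log2 fold change of 0.09 (SE 0.16, interval -0.30 to 0.48, adjusted p 0.786). Ccnt2 (cyclin T2, chr1:127774164-127808061, plus strand) was at 231.2 and 198.9 CPM in the control and 267.0 and 212.8 CPM in the lactate libraries, with a log2 fold change of 0.16 (SE 0.17, interval -0.25 to 0.56, adjusted p 0.627). The groups overlapped for both cyclins, and each value changed sign in a fit with 1 library left out. It was -0.078 for Ccnt1 without control replicate 2 and -0.042 for Ccnt2 without lactate replicate 1. Such a fit also leaves the replicate numbers unbalanced between the groups. Between same-numbered libraries, Ccnt2 was higher with lactate in both replicates, and Ccnt1 in replicate 2 only. The antisense gene 9330020H09Rik shares 695 exonic bases with Ccnt1 and had 91 to 125 counts per library. Whether the counting used strand is not given in the sources used here, so reads from such a pair cannot be told apart.

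Hexim1, which inhibits P-TEFb when bound to 7SK RNA, is a gene of 1 exon at chr11:103116231-103119725 on the plus strand. It was at 37.4 and 47.5 CPM in the control and 27.9 and 44.9 CPM in the lactate libraries, and the groups overlapped. The log2 fold change was -0.22 (SE 0.25, interval -0.83 to 0.39, adjusted p 0.655), with the widest SE of the members beside that of Ell2, and it was 0.055 without lactate replicate 1. The sequence before its start, from RefSeq on GRCm38.p6 (chr11:103116075-103116230, plus strand, 5′ to 3′), is shown because it was the only one of the 9 member promoters found there with a TATA-type element, TATATAA, in capitals.
Hexim1: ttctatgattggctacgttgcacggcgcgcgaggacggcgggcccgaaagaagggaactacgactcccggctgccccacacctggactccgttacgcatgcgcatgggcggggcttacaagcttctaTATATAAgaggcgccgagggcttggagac
The element starts 29 bases before the GENCODE start of the gene and 123 bases before the RefSeq start, and 3.24% of the 32851 RefSeq windows of the same length hold it on either strand. The letters TATAAA were in none of the 9 member windows and in 13.6% of all. Nelfe has no entry in the promoter table.

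In the super elongation complex the scaffold and both ELL factors were measured. Aff4, the scaffold that binds P-TEFb and the ELL factors, lies at chr11:53350833-53421830 on the plus strand and had the highest counts of the members, 5786 to 7363 per library. It was at 334.6 and 321.1 CPM in the control and 393.7 and 373.2 CPM in the lactate libraries, so both lactate values were above both control values. The means were 327.8 ± 9.51 and 383.5 ± 14.5 CPM (SD, n = 2), and the log2 fold change was 0.23 (SE 0.13, interval -0.09 to 0.55, adjusted p 0.359). The 250 bases before its RefSeq start (chr11:53350517-53350766, GRCm38.p6, plus strand) are shown for an E-box, the site class bound by Myc and Max, in capitals.
Aff4: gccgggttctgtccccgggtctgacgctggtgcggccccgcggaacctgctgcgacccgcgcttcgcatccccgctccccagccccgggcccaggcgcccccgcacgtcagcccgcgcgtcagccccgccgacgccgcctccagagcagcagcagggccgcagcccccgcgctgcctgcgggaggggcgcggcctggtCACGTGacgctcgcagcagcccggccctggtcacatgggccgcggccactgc
The E-box CACGTG was found in no other member window and in 7.15% of all windows.

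Ell and Ell2 are alternative elongation factors that raise the rate of Pol II. Ell (chr8:70539457-70592858, plus strand) was at 47.6 and 38.3 CPM in the control and 43.2 and 36.04 CPM in the lactate libraries, with a log2 fold change of -0.12 (SE 0.17, interval -0.54 to 0.30, adjusted p 0.746). Ell2 (chr13:75706757-75772364, plus strand) was at 87.8 and 57.7 CPM in the control and 97.2 and 69.0 CPM in the lactate libraries, with a log2 fold change of 0.19 (SE 0.25, interval -0.42 to 0.80, adjusted p 0.705). The groups overlapped for both, and for Ell2 replicate 1 was the higher library in each group. The value for Ell was of the opposite sign without control replicate 1 (0.033) or lactate replicate 2 (0.0062). That for Ell2 was so without control replicate 2 (-0.086) or lactate replicate 1 (-0.10). Such fits leave the replicate numbers unbalanced. Within each replicate number, Ell was lower and Ell2 higher with lactate. The Ell2 promoter is the only member window with the full cAMP response element TGACGTCA, 198 bases before the RefSeq start, in capitals in these 30 bases (chr13:75707275-75707304, plus strand).
Ell2: aagacgagacaTGACGTCAgataagattaa
The element lies inside the gene span of GENCODE, downstream of its start, and is in 1.79% of all windows. Its shorter form TGACGTC, which the full element contains, is also in the Ccnt1 window and in 3.21% of all.

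Supt5 encodes Spt5, the large subunit of DSIF, and lies on the minus strand at chr7:28314891-28338746. It was at 228.6 and 253.4 CPM in the control and 241.6 and 254.9 CPM in the lactate libraries, and the groups overlapped. The log2 fold change was 0.04 (SE 0.14, interval -0.28 to 0.37, adjusted p 0.889), the smallest of the members in size. It was -0.047 without control replicate 1, a fit with unbalanced replicate numbers. Within each replicate number, Supt5 was higher with lactate. The antisense gene Gm44709 shares 433 exonic bases with Supt5 and had 233 to 574 counts per library. The sequence before its annotated start (chr7:28338747-28338969, GRCm38.p6, minus strand) is shown for the YY1 motif AAGATGGCG, in capitals.
Supt5: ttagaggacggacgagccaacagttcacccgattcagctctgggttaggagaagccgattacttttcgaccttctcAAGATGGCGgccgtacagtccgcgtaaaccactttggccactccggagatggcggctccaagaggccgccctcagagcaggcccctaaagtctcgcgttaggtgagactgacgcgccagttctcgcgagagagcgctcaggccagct
The motif starts 174 bases before the RefSeq and 147 before the GENCODE start, and 1.4% of all windows hold it. Among the members it was also found in Ell, 29 bases after the RefSeq start. The GC box GGGCGG was in 8 of the 9 member windows, all but Aff4, and in 35.7% of all windows. The windows of Cdk9, Ccnt1 and Ell2 lie wholly downstream of the GENCODE start of the gene. The motifs were picked after the member sequences had been read, so these matches are a description of the letters only.

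The NELF subunits were both lower in mean. Nelfa (chr5:33897916-33936413, minus strand), the subunit that contacts Pol II, was at 94.1 and 77.1 CPM in the control and 81.6 and 58.7 CPM in the lactate libraries, and the groups overlapped. Its log2 fold change was -0.29 (SE 0.20, interval -0.77 to 0.19, adjusted p 0.435). Nelfe (chr17:34850391-34856372, plus strand), the subunit with the RNA recognition motif, was at 41.9 and 49.2 CPM in the control and 27.4 and 32.9 CPM in the lactate libraries. Both lactate values of Nelfe were below both control values, with means of 45.5 ± 5.13 and 30.2 ± 3.90 CPM (SD, n = 2). Its log2 fold change of -0.59 (SE 0.16, interval -0.99 to -0.19) was the largest of the members in size, with an adjusted p of 0.113. Nelfe passed an adjusted p of 0.05 without the filter on low counts (-0.64, adjusted p 0.0442), and stayed under 2-fold. That setting called 482 genes higher and 325 lower, against 103 and 65 with the filter. Nelfe also passed in a fit with a replicate block (-0.59, adjusted p 3.04e-06), as did 44.5% of all genes. The genes whose CPM profile was closest to Nelfe over the 4 libraries were Dedd2, Klf16, Mfsd12, Gm30717 and Fam214b, with root mean square differences of 0.00737 to 0.0128 in centred log2 CPM. They were picked as the nearest of 18661 genes, so small differences follow from the choice. Gm30717 was low, at 1.04 and 1.26 CPM in the control and 0.646 and 0.811 CPM in the lactate libraries.

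The difference between the groups was set beside the difference between the replicates of each group. It exceeded both replicate differences for Cdk9, Aff4 and Nelfe, 3 of 10 members, as for 43.2% of all genes. For Ell2, replicate 2 minus replicate 1 was -0.61 in the control and -0.49 in the lactate group (log2 CPM). Both are larger in size than the 0.20 between the group means on the same scale. For Hexim1 these replicate differences were 0.34 and 0.68, and the group means differed by -0.25. The replicate differences thus had the same sign in both groups. Between same-numbered libraries, Ell2 was higher and Hexim1 lower with lactate in both replicates.

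**Figure D2:**
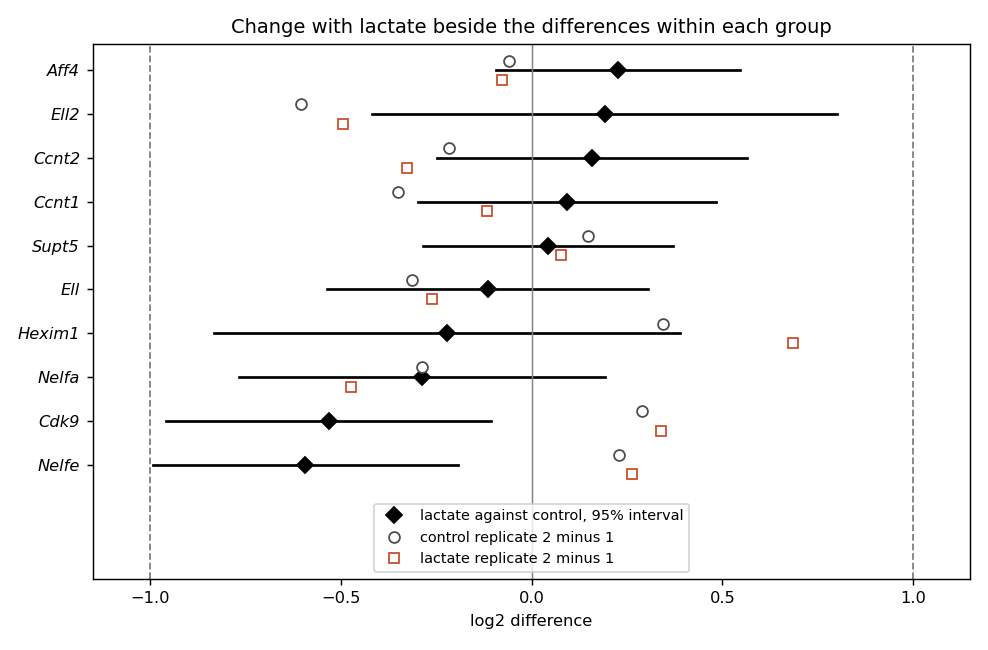
Log2 fold change of each member, lactate against control (diamonds, with 95% intervals), beside the log2 difference of replicate 2 minus replicate 1 in the control (circles) and lactate (squares) libraries. Dashed lines mark a 2-fold change; only the intervals of Cdk9 and Nelfe leave out 0, and the replicate differences of Ell2 and Hexim1 are the widest.

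Levels of different genes were compared by FPKM, which is per transcript length. Supt5 stood highest in the control libraries, at 67.2 and 86.4 FPKM, followed by Cdk9 at 56.7 and 65.0, Ccnt2 at 47.5 and 44.2, and Aff4 at 46.1 and 44.0 FPKM. The NELF subunits came next, Nelfe at 37.5 and 44.7 and Nelfa at 39.9 and 34.5 FPKM. The lowest were Ccnt1 at 25.8 and 20.6, Ell2 at 18.8 and 14.5, Hexim1 at 12.0 and 16.1, and Ell at 15.2 and 12.8 FPKM. From Ccnt2 to Nelfa each member overlapped the next in the control libraries, and so did Ell2, Hexim1 and Ell, whereas Supt5 did not overlap Cdk9, Cdk9 did not overlap Ccnt2, and Ccnt1 overlapped neither Nelfa nor Ell2. Among the 26211 genes with a mean FPKM above 0, a set that includes genes near 0, the members lay in the upper part. They ran from the 75.4th percentile (Ell) to the 94.7th (Supt5) of the control means.

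In the lactate libraries Supt5 stayed first, at 79.5 and 86.8 FPKM, and Cdk9 moved from place 2 to place 4, at 36.6 and 52.4 FPKM. Aff4 was then in place 2, at 62.6 and 56.4 FPKM, and Ccnt2 in place 3, at 64.7 and 49.3 FPKM. By FPKM the groups did not overlap for Ccnt2, Ell2 and Aff4, higher with lactate (28.0% of 20019 genes), nor for Cdk9 and Nelfe, lower (18.0%). Ell2, at 22.6 and 23.8 FPKM in the lactate libraries, and Ccnt2 overlapped in CPM. Length enters FPKM but not CPM. The mean transcript length that RSEM used for Ell2 was 4371 and 3947 bases in the control and 4218 and 3053 bases in the lactate libraries. This was the widest spread among the members. For Aff4 it was 7440 and 7718 bases against 6792 and 7448 bases, and for Ccnt2 4826 and 4695 against 4271 and 4643 bases. The part of length in the changes of place was not tested.

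**Figure D3:**
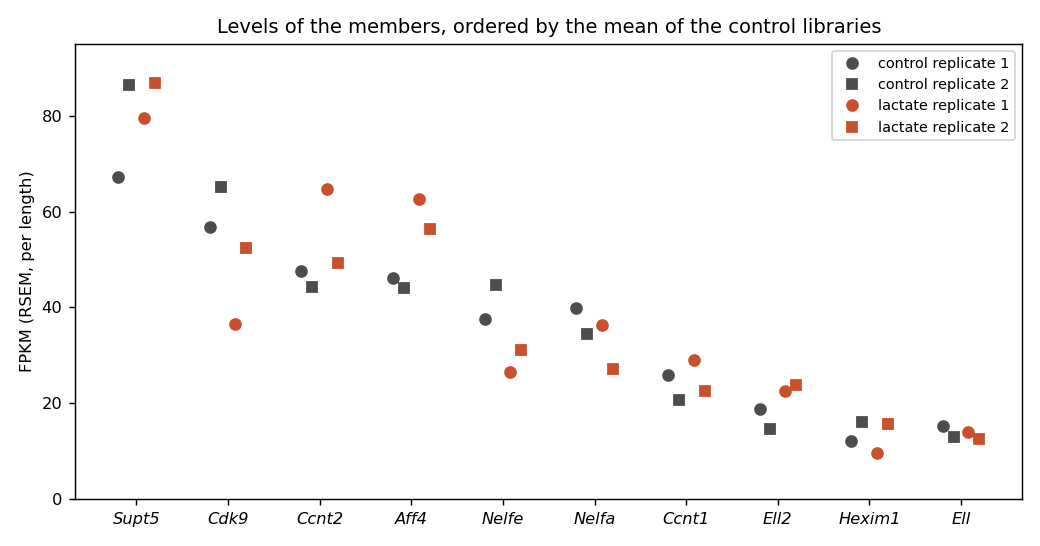
FPKM of each member in the 4 libraries (linear axis from 0), ordered by the control mean. Circles are replicate 1 and squares replicate 2; Supt5 is highest, the Cdk9 lactate points, at 36.6 and 52.4 FPKM, lie below its control points, and Ell and Hexim1 are lowest.

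Ratios within a library compare parts that work together. Aff4 over Cdk9, scaffold over kinase, was 0.812 and 0.677 by FPKM in the control against 1.71 and 1.07 in the lactate libraries, a difference of 0.87 on the log2 scale. Supt5 over Cdk9, substrate over kinase, was 1.19 and 1.33 against 2.17 and 1.66 (0.60 on the log2 scale). Hexim1 over Cdk9, inhibitor over kinase, was 0.212 and 0.248 against 0.259 and 0.300 (0.28). These 3 ratios share Cdk9 as the denominator, and in each the lactate values were above the control values. By counts the differences were 0.76, 0.58 and 0.28 in the same order, also without overlap. How often ratios of other genes lack overlap was not examined. Ell over Ell2 was 0.809 and 0.884 against 0.619 and 0.528 (-0.57 by FPKM and -0.31 by counts), without overlap. Ccnt1 over Ccnt2 was 0.543 and 0.467 against 0.448 and 0.458 by FPKM without overlap (-0.15), but by counts the groups overlapped and the difference was -0.052. Nelfa over Nelfe, 1.06 and 0.773 against 1.37 and 0.873, overlapped. With 2 against 2 libraries the two-sided exact permutation test cannot go below 0.333, which 5 of the 6 pairs reached (0.4 after Benjamini-Hochberg adjustment), so this test cannot pass 0.05 for any of them.

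The other genes of elongation control were read in 11 fixed lists of 84 genes, of which 81 were tested. None passed the threshold of the edgeR test, which called 0.900% of all genes, nor that of DESeq2, which called 2.01%. Limma called no gene at all, so it says nothing about these lists. Of the 81, 51 were lower and 30 higher, with a median log2 fold change of -0.11. At an unadjusted p under 0.05, 14 were lower and 3 higher, the latter Eaf1, Eaf2 and Zc3h8, named after their values were seen. These are 17.3% and 3.7% of the 81, beside 11.4% and 11.7% of all genes. The groups did not overlap for 27 with lactate below and 10 with lactate above, which is 33.3% and 12.3% of the 81, beside 25.9% and 27.0% of all genes.

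Partners of the members are the first of these lists. Of the 7SK particle, 3 of 3 tested genes were lower in value, with Mepce, the capping enzyme of 7SK RNA, at 41.6 and 44.1 CPM in the control and 29.4 and 29.5 CPM in the lactate libraries (log2 fold change -0.54, adjusted p 0.0939), and Larp7, which holds 7SK RNA, at -0.02. The other super elongation complex subunits had a median of 0.26, with 5 of 7 higher, from Ell3 at -0.38 to Eaf2 at 1.07 (adjusted p 0.175), a gene with at most 14 counts per library. Among the other NELF and DSIF subunits, Supt4a, the partner of Spt5, was at 23.8 and 36.6 CPM in the control and 12.8 and 24.3 CPM in the lactate libraries (-0.71, adjusted p 0.280), and it passed the threshold only without lactate replicate 2 (-1.25, adjusted p 0.000853). Nelfcd was at 0.19. Among the P-TEFb recruiters, values ran from Jmjd6 at -0.60 (adjusted p 0.0678) to Ep300, a histone acetyltransferase, at 0.18.

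Of the PAF1 complex, which travels with elongating Pol II, 5 of 6 genes were lower, with a median of -0.41, and 4 of them, Ctr9, Leo1, Rtf1 and Paf1, did not overlap between the groups, with lactate below control as in 25.9% of all genes (the last 3 were named after their values were seen). Ctr9, its scaffold, was at 99.4 and 88.6 CPM in the control and 60.6 and 60.3 CPM in the lactate libraries (-0.64, adjusted p 0.0674), whereas Cdc73 of the same complex was at 0.41. Tcea3, a TFIIS-type factor that rescues backtracked Pol II, was at 31.9 and 33.3 CPM in the control and 16.4 and 17.1 CPM in the lactate libraries (-0.96, adjusted p 0.0502). It passed the threshold without the filter on low counts (-1.01, adjusted p 0.00229), a setting that called 482 genes higher and 325 lower. Tcea2 of the same family was at 0.38, and the list of other elongation factors had a median of -0.09. Zc3h8 of the little elongation complex, which serves small nuclear RNA genes, was at 13.7 and 14.6 CPM in the control and 27.1 and 27.4 CPM in the lactate libraries (0.94, adjusted p 0.0520), and Ice1 of that complex was at -0.33.

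The remaining lists concern Pol II itself and its processing. The Pol II subunits had a median of -0.19, with 9 of 12 lower, and Polr2b, which forms the active centre with Polr2a, was at 298.7 and 267.6 CPM in the control and 181.3 and 162.6 CPM in the lactate libraries (-0.72, adjusted p 0.0637), while Polr2h was at 0.05. Integrator genes, whose complex cleaves nascent RNA of paused Pol II, were lower in 12 of 14 cases with a median of -0.17, from Ints9 at -0.53 to Ints7 at 0.20. The CTD kinases had a median of 0.03, from Cdk7 at -0.35 to Ccnc at 0.30, and the CTD phosphatases one of -0.03, from Ctdp1 at -0.46 to Ctdspl at 0.24.

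**Figure D4:**
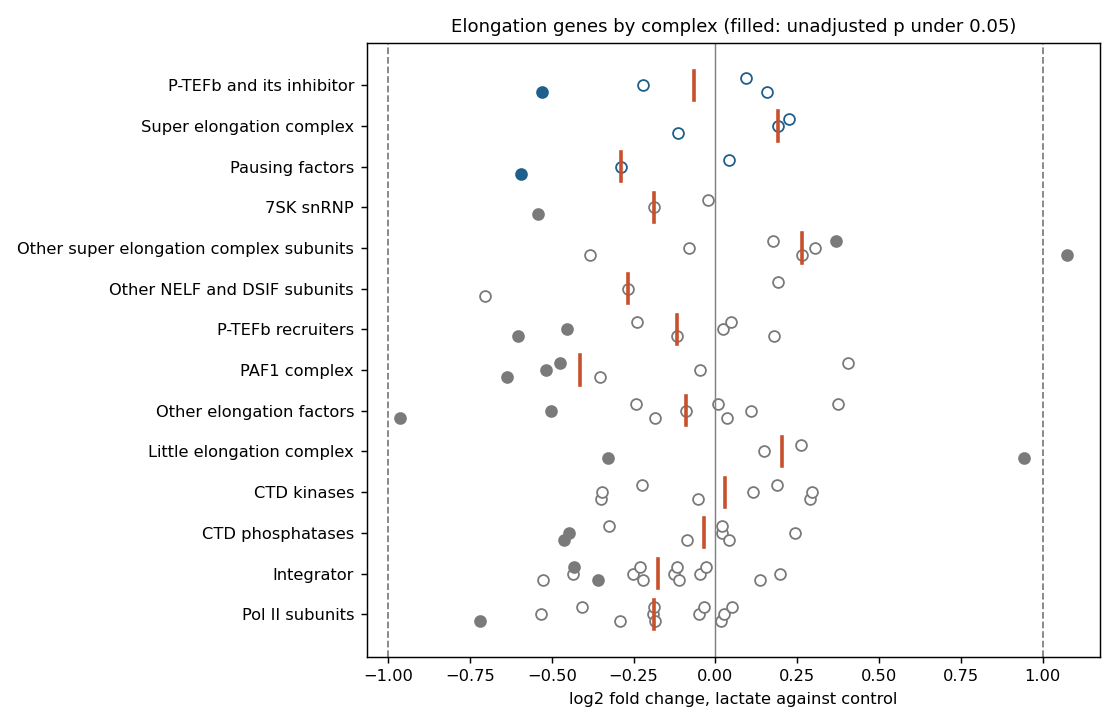
Log2 fold change, lactate against control, of each member (blue, top 3 rows) and each other gene of elongation control (grey), by complex. Filled points have an unadjusted p under 0.05, red bars are list medians and dashed lines a 2-fold change; Eaf2 alone lies beyond 2-fold, and the PAF1 complex has the lowest median, -0.41.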

How the data were processed

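Gene counts, RSEM expected counts, TPM and FPKM were deposited by the authors for 2 control and 2 lactate libraries. Per the methods, reads were trimmed with cutadapt 1.16, mapped with STAR to GENCODE M23 and counted per gene by STAR, with no correction for length or depth, and the authors ran RSEM for the FPKM. The deposited counts also held rows for transposable element families, whose counting the methods do not describe. Expected counts were rounded to whole numbers. The symbols and the same Ensembl identifiers in both sources gave the members; positions came from GENCODE M21 on GRCm38, in which 55154 of 55335 identifiers were found.

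Here, counts were tested in R 4.3.3 with edgeR 4.0.16 (filterByExpr, TMM, quasi-likelihood test in its legacy form, no replicate term, Benjamini-Hochberg over 18661 genes; called at an adjusted p under 0.05 and over 2-fold). Rows for the 1153 transposable element families stayed out of library sizes and tests. SE is the size of the log2 fold change over the square root of F, and 95% intervals use its t distribution. Alternatives were DESeq2 1.42.0, RLE, upper-quartile and library-total scaling, no filter, a minimum of 10 counts per library, a replicate block, RSEM expected counts, limma 3.58.1 on log2(FPKM + 1), with and without a minimum mean of 0.1 FPKM, and with 0.1 as the pseudocount, the adjusted p alone, and each library left out. The fits were tested on simulated data. Promoters are RefSeq windows of GRCm38.p6, found for 9 of 10 members.

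Members and lists were chosen with earlier results of these data known. Named genes are the members, the highest and lowest of each list (or all with an adjusted p under 0.05), the 5 profiles nearest to the member with the largest change, and genes overlapping member exons. Of these, Nsd2 (60 bases shared with Nelfa, opposite strand), and 1700037F03Rik and Gm23127 (sharing bases with Ell2, at most 3 counts) complete the overlaps.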

Additional observations from a re-analysis of the deposited data

How the results depend on the processing

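No member was called under any alternative. Of 150 values of the members under the alternatives, 133 kept their direction and side of the threshold, 8 passed an adjusted p of 0.05 and 9 were of the opposite sign. Cdk9 (-0.72 to -0.38), Nelfe (-0.74 to -0.48), Nelfa (-0.57 to -0.07) and Aff4 (0.16 to 0.40) kept their sign throughout. With single libraries left out, Ccnt1 ranged from -0.078 to 0.26, Ccnt2 from -0.042 to 0.31, Hexim1 from -0.61 to 0.055, Ell from -0.28 to 0.033, with 0.0062 without lactate replicate 2, Ell2 from -0.10 to 0.51, with -0.086 without control replicate 2, and Supt5 from -0.047 to 0.11. Supt5 was at -0.000508 without the filter on low counts, and Ell over Ell2 at -0.31 by counts. Over all genes, 103 were called higher and 65 lower. DESeq2 called 213 and 162, no filter 482 and 325, RSEM expected counts 27 and 17, and library totals 40 lower. Limma called 0 and 0 in each of its 3 settings, with 2914, 2954 and 3419 genes at an unadjusted p under 0.05. The 2914, of 20019 genes, are from limma on log2(FPKM + 1) with the filter. They include Aff4 (p 0.0355) and Ell2 (p 0.0484), both higher, and Nelfe (p 0.0333), lower, but not Cdk9 (p 0.0940). Leaving out single libraries gave 45 to 502 higher and 39 to 367 lower. Of the list genes, 0 were called, against 1 without the filter (Tcea3) and 0 to 1 with a library left out, the 1 being Supt4a without lactate replicate 2. The causes of these shifts were not tested. The members had 510 to 7363 counts per library, while Rn7sk and Supt4b had too few to be tested.

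The control and lactate libraries share replicate numbers, and the labels do not say that a number marks a shared culture or day. Deviations from the group means correlated between same-numbered libraries, at 0.56 over 18661 genes and at 0.91 over the 10 members. Replicate 2 minus 1 had the same sign in both groups for 10 of 10 members and 75.0% of all genes. With a replicate block 761 genes were called higher and 395 lower, and no member. Under this block 7 members had an adjusted p under 0.05, with 44.5% of all genes, namely Cdk9 (-0.53, adjusted p 1.6e-06), Nelfe (-0.59, 3.04e-06), Nelfa (-0.30, 0.00109), Hexim1 (-0.24, 0.0259), Aff4 (0.23, 0.00383), Ell2 (0.20, 0.0155) and Ccnt2 (0.15, 0.0424).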

Other observations

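The 7SK RNA that holds inactive P-TEFb was listed with few counts. Its gene Rn7sk had 5 and 9 counts in the control libraries against 4 and 1 with lactate, too few to compare. The 7SK repeat family, counted among the transposable elements, had 108 and 130 counts in the control libraries against 125 and 133 with lactate, or 6.25 and 6.85 against 6.72 and 6.74 CPM. That row is for a repeat family as a whole, so reads of the 7SK RNA itself cannot be told apart within it. Supt4b, a second gene for the Spt4 subunit, had 3 and 4 counts in the control and 1 in each lactate library.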
